A study of Mus musculus with 17 samples.

Results

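Transcripts of 10 genes of the integrated stress response and of growth arrest were followed in the diaphragm, a breathing muscle: Atf4, Ddit3, Trib3, Chac1, Asns, Psat1, Gdf15, Fgf21, Gadd45a and Cdkn1a. They were taken by symbol, and all 10 are among the 47643 gene symbols of the table. RNA was sequenced from 17 male C57BL/6J mice aged 4 months. Control mice (n = 5) carried no tumor and received mock injections, and Control + rFibcd1 mice (n = 5) carried no tumor and received a recombinant C-terminal fragment of mouse Fibcd1. LLC mice (n = 3) had Lewis lung carcinoma (LLC) cells implanted under the skin of both flanks and received mock injections, and LLC + rFibcd1 mice (n = 4) carried these tumors and received the fragment. The fragment was made in insect cells with baculovirus and was given into the peritoneal cavity in the last week, and the mock was saline with albumin. The comparisons ask how a tumor changes the muscle's transcripts and whether the secreted protein Fibcd1 limits that change.

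Atf4 is the transcription factor at the centre of the integrated stress response. When kinases phosphorylate the initiation factor eIF2α, most translation slows while Atf4 mRNA is translated better, and Atf4 then turns on genes for amino acid synthesis and uptake, for the stress factor Ddit3 (CHOP) and for the feedback inhibitor Trib3. In muscle, Gdf15 and Fgf21 are known as hormones released under mitochondrial and other cell stress, and Gadd45a and Cdkn1a (p21) as growth arrest genes raised in wasting or denervated fibers. A change in Atf4 translation need not show in Atf4 mRNA.

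The promoters of 5 of the 10 genes hold a match to sequences through which Atf4 is known to act, and these are shown to give the letters behind the name Atf4 target. The genes were chosen as such targets, so a match is no independent finding. The RefSeq promoters (GRCm38.p6, from 250 bases before to 50 bases after each start, 32851 in all) were searched on both strands for TGATGNAA, a form of the C/EBP-ATF response element, and for TGNNGCAAT, which can overlap it and was chosen after the promoters were seen. TGATGNAA occurs in 3.97% of all promoters, TGNNGCAAT in 2.12% and at least 1 of them in 5.80%. Among the 13 promoters of the 10 genes, 5 hold at least 1 match, 1 for each of Asns, Psat1, Chac1, Trib3 and Fgf21, and that of Psat1 is to TGNNGCAAT alone. The windows below are printed along the strand of the gene, with the match in capitals. They lie at chr6:7693214-7693243 (minus strand) for Asns, chr19:15925176-15925205 (minus) for Psat1, chr2:119351038-119351067 (plus) for Chac1, chr2:152344074-152344103 (minus) for Trib3 and chr7:45615611-45615640 (minus) for Fgf21.
Asns: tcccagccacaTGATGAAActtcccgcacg
Psat1: cgcgggtggcTGGTGCAATcccctgctctc
Chac1: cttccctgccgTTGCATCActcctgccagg
Trib3: gggtcacagaTGGTGCAATcccgggccgct
Fgf21: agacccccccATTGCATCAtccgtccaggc
In Asns, Psat1 and Trib3 the match runs along the gene's strand, and in Chac1 and Fgf21 the capitals are the reverse complement. Besides Psat1, the windows of Trib3 and Fgf21 show a match to TGNNGCAAT, which in Fgf21 overlaps one to TGATGNAA. Trib3 also matches TGATGNAA, and Chac1 TGNNGCAAT, at places not printed. A match is a run of letters and not a measured binding site.

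Levels are given in TPM, transcripts per 1000000, which the authors scaled by gene length within each sample. Depth recovered from the steps of low values was 50.7 to 54.6 (in 1000000 reads) per mouse. Mitochondrially encoded transcripts held 41.3% to 50.4% of TPM. The myofiber marker Acta1, skeletal actin, averaged 22846 ± 979 TPM in Control (SD, n = 5) and 20425 ± 346 TPM in LLC (SD, n = 3), so the tissue was muscle as labelled. Other cells were present to differing degrees. The summed level of 8 B cell markers ran from 2.57 to 108 TPM in Control, 3.62 to 152 TPM in Control + rFibcd1, 249 to 319 TPM in LLC and 19.5 to 308 TPM in LLC + rFibcd1. The summed level of 5 neutrophil markers ran from 1.84 to 14.2 TPM, 2.87 to 78.2 TPM, 44.9 to 106 TPM and 54.9 to 206 TPM in the same order. Of these markers, all 8 of the B cell list and all 5 of the neutrophil list rose in LLC against Control, as did 5 of 5 T cell markers, where 29.7% of all genes rose and 6.02% fell. Of 5 macrophage markers 2 were called higher, near that share, and 3 of 8 myofiber markers fell. Without LLC replicate 3 none of these markers was called (0 of 8 B cell, 0 of 5 neutrophil, 0 of 5 T cell), and the B cell count was 0 without LLC replicate 1, 3 without LLC replicate 2 or Control replicate 3 or 4 and 1 without Control replicate 5. The T cell count was 3 without LLC replicate 1 or Control replicate 3 or 5. Without 1 mouse, 0 to 3 of the macrophage markers were called higher and 0 to 4 of the myofiber markers lower. The 5 hepatocyte markers summed to 75.2 to 393 TPM in Control (mean 233 TPM, of which Cyp2e1 averaged 156 TPM). They summed to 3318 TPM in 1 mouse of Control + rFibcd1, a group where Alb reached 1934 TPM. In LLC, Cyp2e1 averaged 541 TPM and Alb 3.99 TPM, so these sums differ in makeup. In whole tissue, fewer cells of a type and less RNA per cell cannot be told apart.

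Tests used limma on log2(TPM + 1) for 13305 genes (3 or more mice at 1 TPM or above), with p-values adjusted over all of these genes by the Benjamini-Hochberg procedure at a threshold of 0.05. Of the 10 genes, 8 passed this filter, and Gdf15 and Fgf21 did not. In tumor-bearing against tumor-free mice (7 against 10), Cdkn1a, Asns and Psat1 rose and Gadd45a fell, so 4 of 8 genes were called, where 44.8% of all genes tested were (38.8% higher and 5.98% lower). Of the genes called, 86.7% were higher, a share that was 49.4% under median-ratio scaling, 35.4% under quantile normalization and 68.9% when TPM were rescaled without mitochondrially encoded genes. In LLC against Control, 3 of 8 were called, where 35.8% of all genes tested were (29.7% higher and 6.02% lower). Of these calls 83.2% were higher, against 48.5%, 32.2% and 62.9% under the same 3 scalings. The background rests on few mice, since 24 of 13305 genes were called without LLC replicate 3 (62.5% of them higher) and 2272 without LLC replicate 1, in place of 4759. Asns and Psat1 rose and Gadd45a fell. The median log2 difference over all genes was 0.13 and 0.16 in these 2 comparisons, and -0.11 in LLC + rFibcd1 against LLC. The shares of called genes among the 8 are close to these backgrounds.

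**Figure D1:**
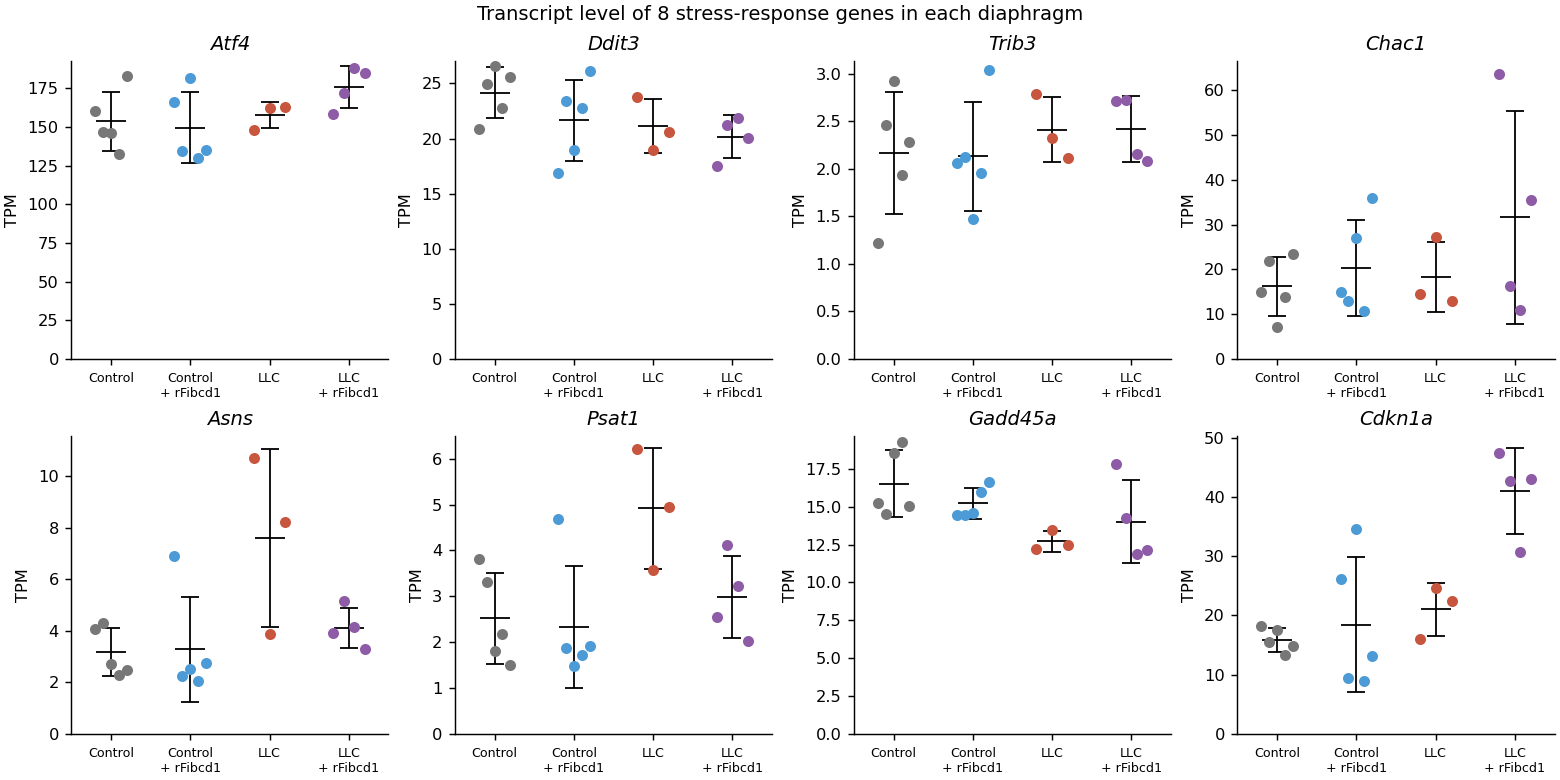
TPM (vertical axes, from 0) of 8 genes in each mouse of the 4 groups, with 1 point per mouse and the mean ± SD as bars. The 3 LLC mice lie highest on average for Asns (7.61 TPM) and Psat1 (4.91 TPM), the 4 LLC + rFibcd1 mice lie above every LLC and Control mouse for Cdkn1a (30.7 to 47.5 TPM), and Atf4 stays between 130 and 188 TPM in all 17 mice.

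Atf4 itself, chr15:80255184-80257541 on GRCm38, was among the more abundant of these transcripts and did not separate the groups. It averaged 154 ± 19.2 TPM in Control (SD, n = 5), 150 ± 23.0 TPM in Control + rFibcd1 (SD, n = 5), 158 ± 8.44 TPM in LLC (SD, n = 3) and 176 ± 13.5 TPM in LLC + rFibcd1 (SD, n = 4). All 4 ranges overlapped, from 130 to 188 TPM over the 17 mice. LLC against Control differed by 0.045 ± 0.11 on the log2 scale (SE, limma adjusted p = 0.778), with a 95% interval of -0.20 to 0.29. Against tumor-free mice, tumor-bearing mice differed by 0.15 ± 0.077 (adjusted p = 0.112). The sign in LLC against Control turned under 3 other scalings, with values of -0.16, -0.12 and -0.065.

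Ddit3, the proapoptotic partner of Atf4, was not called in either tumor comparison. Its levels were 20.9 to 26.6 TPM in Control, 16.9 to 26.2 TPM in Control + rFibcd1, 19.0 to 23.8 TPM in LLC and 17.5 to 21.9 TPM in LLC + rFibcd1, with overlap between all groups. The log2 difference between LLC and Control was -0.19 ± 0.12 (adjusted p = 0.242), and under median-ratio scaling it was -0.38 with an adjusted p of 0.0434. GENCODE M21 holds a second gene named Ddit3 on the same strand, whose exons overlap those of Ddit3 by 105 bases. Exons of Ddit3 also overlap those of Mars on the opposite strand by 68 bases, and Mars, the methionyl-tRNA synthetase, reached 29.4 TPM. Whether the counting used strand is not settled, so a small part of these reads may be shared.

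Trib3, a pseudokinase that holds back Atf4 and Akt signaling, was low in every group. It lay between 1.22 and 3.04 TPM in all 17 mice, from 65 to 160 reads. LLC against Control differed by 0.13 ± 0.17 (adjusted p = 0.567). Chac1, a glutathione-degrading enzyme, varied more within groups than between them. Its LLC + rFibcd1 mice had 63.7, 16.2, 11.0 and 35.5 TPM, its LLC mice 14.5, 27.3 and 13.0 TPM, and its tumor-free mice 7.07 to 35.9 TPM. The highest and the third lowest of all 17 values thus fell in the same group. LLC + rFibcd1 against LLC differed by 0.53 ± 0.55 (adjusted p = 0.522), and the 95% interval of -0.64 to 1.70 leaves room for a large change in either direction.

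Asns and Psat1, which make asparagine and serve serine synthesis, rose in LLC against Control. Asns was 4.07, 4.32, 2.72, 2.28 and 2.50 TPM in the Control mice and 10.7, 3.88 and 8.25 TPM in the LLC mice. LLC replicates 1 and 3 lay above every other mouse, while replicate 2 lay inside the Control range. The rise was 0.98 ± 0.31 on the log2 scale (limma adjusted p = 0.0258). Psat1 was 3.81, 3.31, 1.80, 2.18 and 1.50 TPM in Control and 6.21, 3.58 and 4.95 TPM in LLC, and replicate 2 again lay within the Control range. Its rise was 0.77 ± 0.28 (adjusted p = 0.0423). The calls rest on few mice. Psat1 was not called under any of the 3 scalings (adjusted p = 0.0678, 0.105 and 0.0623), nor Asns under quantile normalization (0.0508). Without LLC replicate 1 the adjusted p was 0.135 for Asns and 0.167 for Psat1, and without LLC replicate 3 it was 0.112 and 0.128. Leaving out Control replicate 3, 4 or 5 also ended both calls (Asns 0.0501, 0.0552 and 0.0542, Psat1 0.0844, 0.0745 and 0.0918), and Psat1 also lost its call without Control + rFibcd1 replicate 5. With all 7 tumor-bearing mice set against the 10 tumor-free mice, Asns rose by 0.61 ± 0.21 (adjusted p = 0.0275) and Psat1 by 0.49 ± 0.19 (adjusted p = 0.0428). Asns was called in 15 of the 17 fits that left out 1 mouse, all but those without LLC replicate 1 or 3 (adjusted p = 0.0961 and 0.0887). Psat1 was called in 5 of 17, with adjusted p up to 0.133, and was lost without any 1 LLC mouse, Control replicates 3 to 5, Control + rFibcd1 replicates 2 to 5 or LLC + rFibcd1 replicate 2 or 3.

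In LLC + rFibcd1 mice the means of both genes lay between those of Control and LLC. Asns was 3.91, 5.15, 4.14 and 3.30 TPM and Psat1 was 2.55, 4.11, 3.23 and 2.04 TPM. The ranges overlapped those of LLC for both genes. LLC + rFibcd1 against LLC differed by -0.67 ± 0.32 for Asns (adjusted p = 0.226, 95% interval -1.36 to 0.020) and by -0.57 ± 0.29 for Psat1 (adjusted p = 0.235, interval -1.19 to 0.043). LLC + rFibcd1 against Control differed by 0.31 ± 0.28 and 0.20 ± 0.25 (adjusted p = 0.564 and 0.696). No call was therefore reached for an effect of rFibcd1 on either gene.

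Both genes moved with the B cell markers from mouse to mouse. The summed level of 5 adipocyte markers also varied, at 3796, 1029 and 1785 TPM in LLC replicates 1 to 3. It ran from 641 to 1773 TPM in LLC + rFibcd1 and from 584 to 1703 TPM in Control. In Control + rFibcd1 it was 1796 TPM in replicate 1 and at most 759 TPM in the other 4. Relations of Asns and Psat1 with the adipocyte markers were not tested. In Control + rFibcd1, replicate 1 had 6.90 TPM of Asns and 4.69 TPM of Psat1, against at most 2.76 and 1.92 TPM in the other 4, and it was also the mouse with the highest B cell marker sum of the tumor-free mice. Over the 10 tumor-free mice, Psat1 and the mean log2 level of the 8 markers gave r = 0.95 (permutation p = 1e-05, the smallest that 100000 permutations can give) and rho = 0.96 (permutation p = 7e-05), with r = 0.93 after the 2 mice farthest on the marker axis were left out. Asns gave r = 0.85 (permutation p = 0.00078) and rho = 0.73 (permutation p = 0.0201), and r = 0.87 without the 2 farthest. Over the 7 tumor-bearing mice, r was 0.78 for Psat1 (exact permutation p = 0.0472, rho = 0.64 with p = 0.139) and 0.59 for Asns (exact p = 0.112, rho = 0.61 with p = 0.167). These fell to 0.16 and 0.30 without the 2 farthest, LLC + rFibcd1 replicates 1 and 4, so the relation in tumor-bearing mice rests on those mice. The 7 mice include mock and rFibcd1 mice, so these values mix the difference between treatments with that between mice. The 14 relations tested within tumor-free or tumor-bearing mice were picked from 44 pooled relations, of which 7 had an adjusted p under 0.05. The Benjamini-Hochberg values over the 14 were 0.00014, 0.00278, 0.0826 and 0.157 in this order.

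With the B cell marker level as a covariate, the LLC against Control difference was 0.39 for Asns (adjusted p = 0.594) and 0.084 for Psat1 (adjusted p = 0.881). In that fit 8 of 13305 genes were called in all, against 4759 without the covariate. The marker ranges of LLC and Control do not overlap, so the covariate and the tumor share much of their variation, and how far B cells account for either rise was not tested. Asns and Psat1 also moved with each other, with r = 0.92 over tumor-free mice (permutation p = 0.00167, rho = 0.66 with p = 0.0442) and r = 0.93 over tumor-bearing mice (exact permutation p = 0.000794, rho = 0.89 with p = 0.0123), and r was 0.79 and 0.86 without the 2 farthest mice. The adjusted values of these relations were 0.00468 and 0.00278. The transcripts most like Psat1 over the 17 mice by Pearson's r on log2(TPM + 1) were Chst1, Phgdh and Slc1a5 (0.98 each), of which Phgdh opens the serine pathway and Slc1a5 imports glutamine. Those most like Asns were Ppp2r1b (0.97), Mmp28 (0.96) and Adcy5 (0.96).

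**Figure D2:**
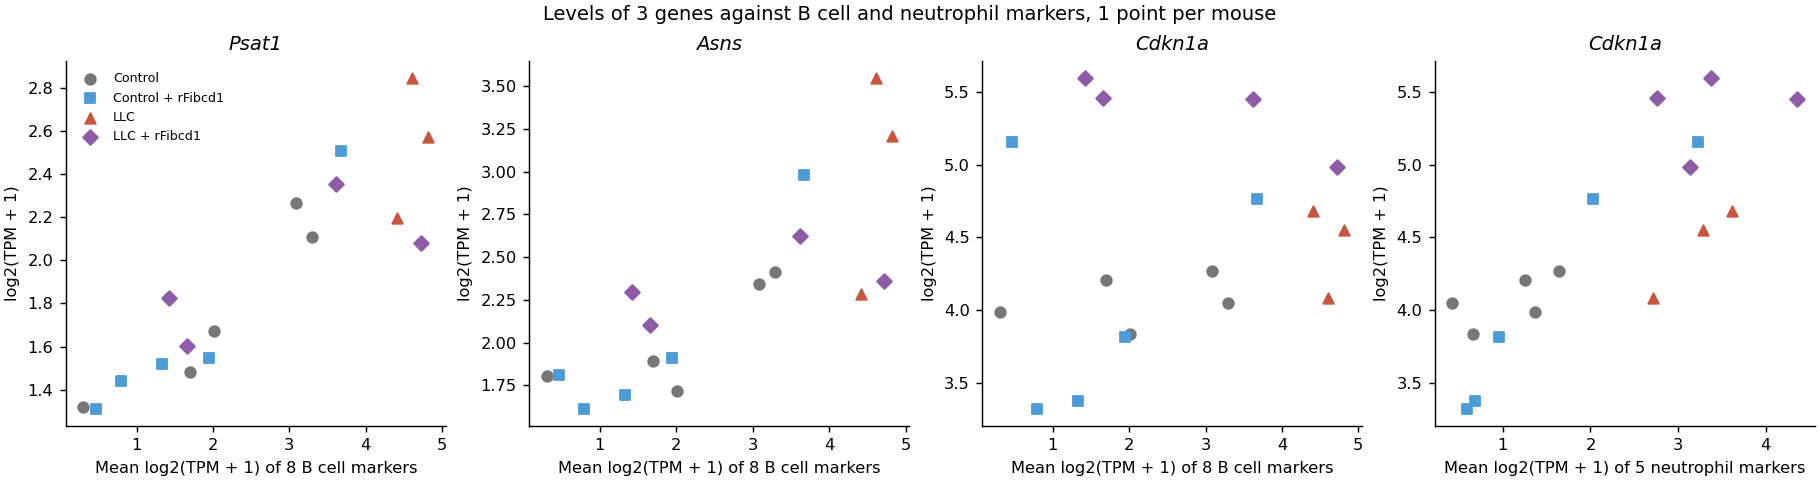
Levels of Psat1, Asns and Cdkn1a (vertical axes, log2(TPM + 1)) against the mean log2(TPM + 1) of 8 B cell markers (first 3 panels) or 5 neutrophil markers (last panel), with 1 point per mouse and symbols for the 4 groups. Psat1 and Asns climb with the B cell markers in tumor-free mice (r = 0.95 and 0.85), and Cdkn1a climbs with the neutrophil markers there (r = 0.89).

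Cdkn1a, the p21 inhibitor of cyclin-dependent kinases, was higher over both tumor groups together than in tumor-free mice. The LLC + rFibcd1 mice had the highest mean, and in mock-injected mice the tumor difference was not called. It lies at chr17:29090976-29100727. Its values were 18.2, 15.5, 17.5, 13.3 and 14.8 TPM in Control and 26.2, 9.39, 34.7, 8.98 and 13.1 TPM in Control + rFibcd1. In LLC they were 16.0, 24.6 and 22.4 TPM, and in LLC + rFibcd1 47.5, 42.7, 30.7 and 43.1 TPM. Every LLC + rFibcd1 mouse lay above every LLC and every Control mouse, while Control + rFibcd1 replicate 3 lay among them. Of all genes tested, 5.26% lay higher without overlap in LLC + rFibcd1 against LLC and 5.96% against Control.

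Tumor-bearing mice exceeded tumor-free mice by 0.90 ± 0.23 on the log2 scale (limma adjusted p = 0.00811), and this call was made in 17 of the 17 fits that left out 1 mouse, with values from 0.79 to 1.04. LLC + rFibcd1 exceeded Control by 1.31 ± 0.32 (adjusted p = 0.0383), the only one of the 8 genes called there, where 3.08% of all genes were. That call ended when any 1 of the 9 mice of these groups was left out, with adjusted p up to 0.0933 while the difference stayed between 1.23 and 1.44. It also ended under median-ratio scaling (0.0547), without the filter on low values (0.0614) and with the replicate block (0.0943). LLC against Control differed by 0.37 ± 0.34 (adjusted p = 0.407), called in 0 of 17 such fits. LLC + rFibcd1 against LLC differed by 0.94 ± 0.36, with an unadjusted p of 0.0198 and an adjusted p of 0.198 in limma. Among the 8 genes it was the only one at an unadjusted p under 0.05, where 22.7% of all genes were and 0.113% were called. The interaction of tumor and rFibcd1, which asks whether the fragment acts differently in tumor-bearing mice, was 0.92 ± 0.47 (adjusted p = 0.618).

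The neutrophil markers moved with Cdkn1a. In Control + rFibcd1, replicates 3 and 1 had the highest Cdkn1a and neutrophil marker sums of 78.2 and 25.2 TPM, against 2.87 to 5.73 TPM in the other 3. Over the 10 tumor-free mice the relation had r = 0.89 (permutation p = 0.00056, adjusted 0.00278) and rho = 0.76 (permutation p = 0.0148), and r = 0.63 without the 2 farthest mice. Over the 7 tumor-bearing mice it had r = 0.38 (exact permutation p = 0.423, adjusted 0.456) and rho = 0.32 (exact p = 0.498), and r = -0.48 without the 2 farthest. With the neutrophil marker level as a covariate, an alternative added after the data were seen, LLC + rFibcd1 against Control was 0.051 (adjusted p = 0.970), tumor-bearing against tumor-free was -0.20 (adjusted p = 0.606) and LLC + rFibcd1 against LLC was 0.83 (adjusted p = 0.151). In that fit 0 genes were called for tumor against no tumor, where the markers and the tumor vary together, and the part of neutrophils in the Cdkn1a levels was not tested. With the B cell covariate the difference from Control was 1.30 (adjusted p = 0.0505). Cdkn1a also moved with Atf4 over tumor-free mice, with r = 0.77 (permutation p = 0.00832, adjusted 0.0166), rho = 0.77 (permutation p = 0.0126) and r = 0.91 without the 2 farthest mice. Over tumor-bearing mice it gave r = 0.55 (exact permutation p = 0.199, adjusted 0.232), rho = 0.32 (exact p = 0.498) and r = 0.64. Atf4 itself moved with the neutrophil markers over tumor-free mice, with r = 0.79 (permutation p = 0.0039, adjusted 0.0091), rho = 0.75 (permutation p = 0.0174) and r = 0.70 without the 2 farthest mice, but r was 0.048 over tumor-bearing mice (exact permutation p = 0.927, rho = 0.036 with p = 0.963) and -0.78 without the 2 farthest. Ddit3 and Cdkn1a gave r = -0.67 over all 17 mice (permutation p = 0.00373, adjusted 0.0234, rho = -0.73 with p = 0.00171). Within tumor-free mice r was -0.62 (permutation p = 0.054, adjusted 0.084, rho = -0.45 with p = 0.19), and within tumor-bearing mice -0.61 (exact permutation p = 0.154, adjusted 0.196, rho = -0.61 with p = 0.167). Over all mice r was -0.63 without the 2 mice farthest on Ddit3. Without the 2 farthest on Cdkn1a, r was 0.15 within tumor-free and 0.29 within tumor-bearing mice. The 2 removals used different axes and are not compared. Tumor-free and tumor-bearing mice each include mock and rFibcd1 mice, and deviations from the means of the 4 groups gave r = -0.70 over all 17. The transcripts most like Cdkn1a over the 17 mice were Atf5 (r = 0.91), a stress-induced relative of Atf4, Rnf10 and Eif1 (0.89 each).

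Gadd45a, a stress gene linked to DNA repair and muscle denervation, was lower in LLC than in Control. Its values were 15.2, 14.5, 18.6, 19.3 and 15.0 TPM in Control and 12.2, 13.5 and 12.5 TPM in LLC, and the ranges did not overlap, as for 6.67% of genes in the lower direction. It fell by 0.34 ± 0.12 on the log2 scale (limma adjusted p = 0.0339). The call ended without LLC replicate 1 (adjusted p = 0.109), LLC replicate 3 (0.115) or Control replicate 3 or 4 (0.0729 and 0.0745). Over both tumor groups against both tumor-free groups it fell by 0.23 ± 0.079 (adjusted p = 0.0299), and this call was made in 12 of 17 fits, ending without the same 4 mice or LLC + rFibcd1 replicate 3, with adjusted p up to 0.0715. Both calls also ended with the B cell covariate (adjusted p = 0.495 in LLC against Control and 0.386 over both tumor groups), the neutrophil covariate (0.214 and 0.341) and the replicate block (0.116 and 0.0979). LLC + rFibcd1 mice had 17.8, 14.2, 11.9 and 12.2 TPM, across both ranges, and differed from LLC by 0.11 ± 0.12 (adjusted p = 0.536). The transcripts most like it were Cpt1b (r = 0.88), the muscle carnitine palmitoyltransferase, Abcc9 (0.87) and Zfand5 (0.85).

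**Figure D3:**
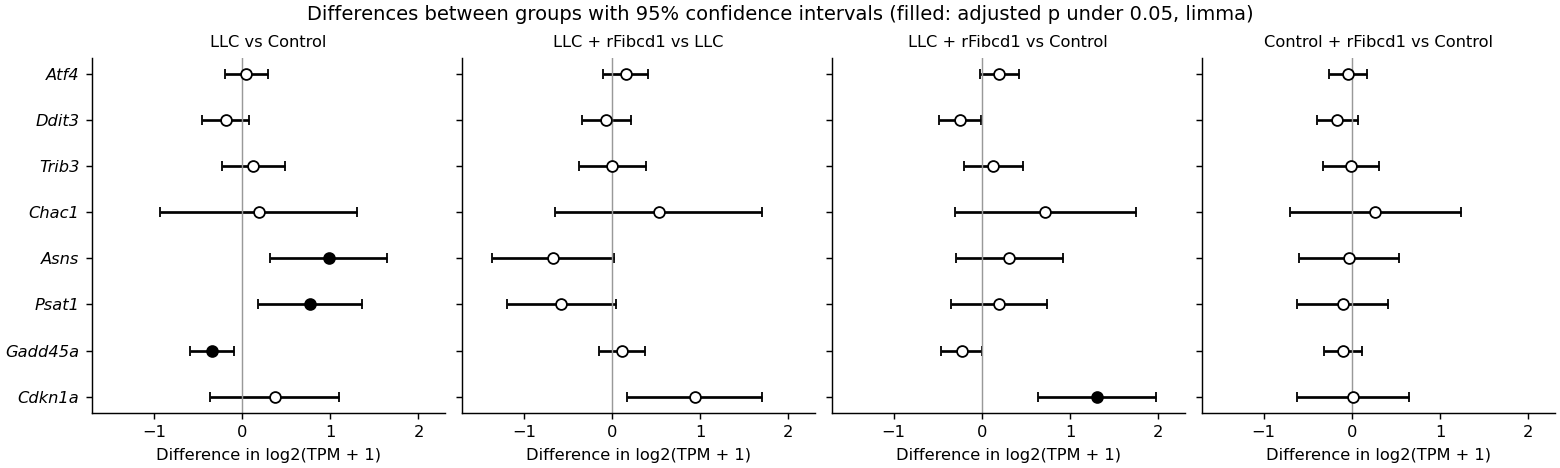
Differences in log2(TPM + 1) (horizontal axes) of 8 genes in 4 comparisons, with 95% confidence intervals from limma and filled points for an adjusted p under 0.05. Asns, Psat1 and Gadd45a are filled in LLC against Control and Cdkn1a in LLC + rFibcd1 against Control (1.31), and 0 of 8 are filled for rFibcd1 with or without a tumor.

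The hormones Gdf15 and Fgf21 were barely present in the diaphragm. Gdf15, which acts on a brainstem receptor to lower appetite, was 0.387, 0.128, 0.271, 0.194 and 0.224 TPM in Control and 0.303, 0.280 and 0.335 TPM in LLC. In LLC + rFibcd1 it was 0.147, 0.388, 0.691 and 0.571 TPM, so 2 of these 4 mice exceeded all others and 1 lay near the bottom. Only 5 to 33 reads per mouse stood behind these values, 243 in all. Without the filter on low values, tumor-bearing and tumor-free mice differed by 0.14 ± 0.069 (limma adjusted p = 0.147) and LLC + rFibcd1 and Control by 0.21 ± 0.094 (adjusted p = 0.321), on a log2(TPM + 1) scale that understates changes at this level. The transcripts most like Gdf15 were Fgf11 (r = 0.83), Rfxap (0.78) and Lsm2 (0.77).

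Fgf21, a hormone of fasting and mitochondrial stress, had 7 reads in 17 mice. It was at 0 in 11 mice and had at most 2 reads in any, in LLC replicate 1 (0.0862 TPM). A count of 0 allows up to 3 reads, or 0.118 to 0.132 TPM, and covers counting error only. No difference between groups was detectable at this depth. Of the receptors for these hormones, Klb, the coreceptor of Fgf21, averaged 0.282 ± 0.252 TPM in Control (SD, n = 5) and 1.32 ± 1.32 TPM in LLC (SD, n = 3), which was not called (0.73 ± 0.36, adjusted p = 0.123).

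**Figure D4:**
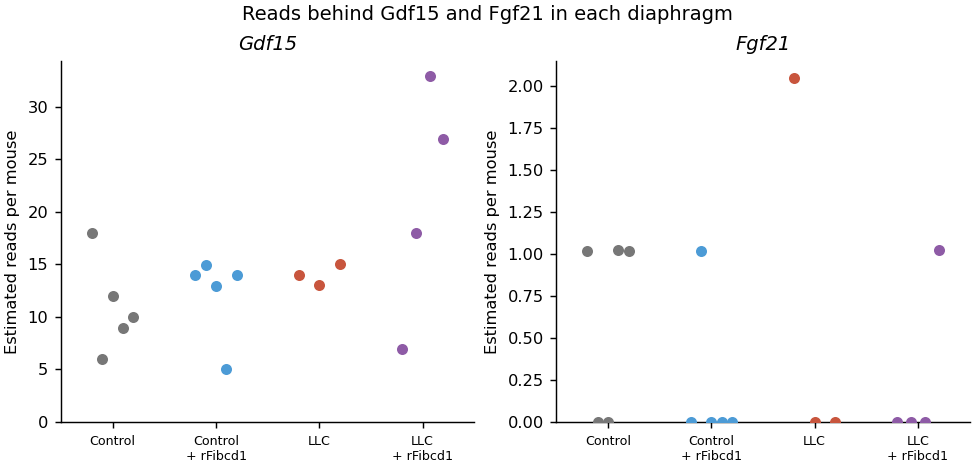
Estimated reads (vertical axes, from 0) of Gdf15 and Fgf21 in each mouse of the 4 groups, 1 point per mouse. Gdf15 stays between 5 and 33 reads, with the 2 highest mice in LLC + rFibcd1, and Fgf21 between 0 and 2.

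None of the 8 genes was called for the fragment in tumor-free mice. Control + rFibcd1 against Control gave 0 calls in limma and 0 at an unadjusted p under 0.05, where 0% of all genes were called and 4.39% had an unadjusted p under 0.05. The log2 differences ran from -0.16 for Ddit3 to 0.27 for Chac1, with the lowest adjusted p at 0.927. For LLC + rFibcd1 against LLC, limma called 0 of the 8, with 1 at an unadjusted p under 0.05, where 0.113% of all genes were called and 22.7% passed unadjusted. The Dunn test called 0 of 13305 genes in each comparison of 2 groups, so it adds nothing on these counts. For the interaction, limma called 0 of the 8, with 0 at an unadjusted p under 0.05, where 0% of all genes were called and 8.58% passed unadjusted.

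The pathways around these genes were then counted in LLC against Control. Without LLC replicate 3 each of the 8 lists had 0 calls, while the list medians kept their sign, so the counts below hold only with that mouse. Of 12 kinases and phosphatases of eIF2α and related genes, 4 rose and 0 fell, where 29.7% of all genes rose and 6.02% fell, with a median log2 difference of 0.15 beside 0.16 for all genes. Under each of the 3 other scalings 0 of the 12 were called, the 3 named next included, and Eif2ak1 turned to -0.025 under quantile normalization. The count was also 0 without LLC replicate 1, and 1 without Control replicate 3, 4 or 5. Eif2ak1, the heme-regulated kinase, rose by 0.20 ± 0.055 (adjusted p = 0.0159), Eif2ak4, the amino acid sensor GCN2, by 0.34 ± 0.11 (adjusted p = 0.0292) and Ppp1r15b, which recruits the phosphatase, by 0.51 ± 0.18 (adjusted p = 0.0384). Of 28 other Atf4 targets, 7 rose and 0 fell, with a median of 0.17, beside the same 29.7% and 6.02%. Under median-ratio scaling 6 rose and 1 fell, under quantile normalization 4 rose and 2 fell, and without mitochondrially encoded genes 6 rose and 0 fell. Of all genes, 14.4%, 11.3% and 18.7% rose and 15.3%, 23.9% and 11.0% fell under these scalings. Slc3a2 and Slc7a5, the chains of the large neutral amino acid transporter, rose by 0.80 ± 0.17 and 0.78 ± 0.17 (adjusted p = 0.0102 and 0.0104). Slc3a2 went from 18.1 ± 2.99 TPM in Control (SD, n = 5) to 31.9 ± 1.58 TPM in LLC (SD, n = 3). Mthfd2, a mitochondrial folate enzyme, rose by 0.62 ± 0.16 (adjusted p = 0.0130, but 0.0963 under quantile normalization) and Sesn2, a leucine sensor, by 0.83 ± 0.24 (adjusted p = 0.0196). Of 20 aminoacyl-tRNA synthetases 7 rose and 0 fell (median 0.11, below that of all genes), beside the same shares. Under these scalings the counts were 1 higher and 3 lower, 1 and 3, and 2 and 3, beside the shares of all genes just given. Without LLC replicate 1, 4 rose. Vars rose by 0.78 ± 0.15 (adjusted p = 0.00897), and it was called higher under all 3.

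Among the genes of the endoplasmic reticulum, most were called. Of 20 chaperones and genes of the other arms of the unfolded protein response, 15 rose and 0 fell, where 29.7% of all genes rose, with a median of 0.56 beside 0.16. Under the 3 scalings 7, 9 and 9 of the 20 rose and 0 fell, where 14.4%, 11.3% and 18.7% of all genes rose. Without LLC replicate 1, 7 rose, and without LLC replicate 3, 0, with medians of 0.56 and 0.51. Calr, the chaperone calreticulin, went from 120 ± 10.3 TPM in Control (SD, n = 5) to 180 ± 11.7 TPM in LLC (SD, n = 3). Xbp1, the factor of the Ire1 arm that plasma cells also express strongly, rose by 0.76 ± 0.20 (adjusted p = 0.0136), and Syvn1, a ubiquitin ligase of that membrane, by 0.72 ± 0.18 (adjusted p = 0.0132). All 8 B cell, 5 neutrophil and 5 T cell markers rose in the same comparison, with the limits given above, and their part in these lists was not tested. Ddit3, the usual end point of that response, was at -0.19 ± 0.12 (adjusted p = 0.242), as given above.

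**Figure D5:**
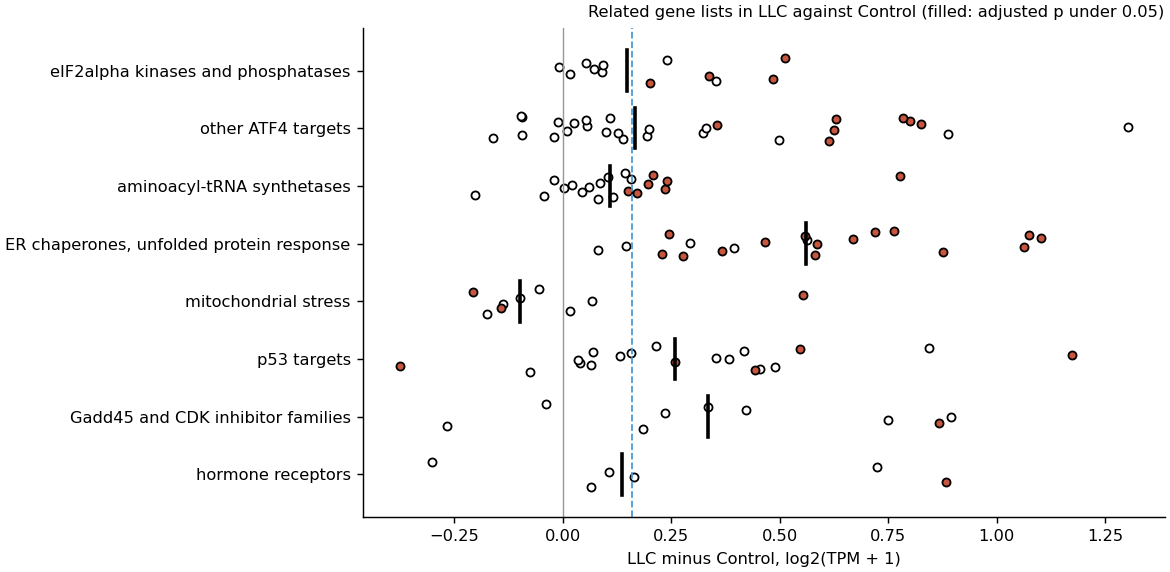
Log2(TPM + 1) differences, LLC minus Control (horizontal axis), for the genes of 8 related lists, with 1 point per gene, filled at an adjusted p under 0.05, a bar for the median of each list and a dashed line for the median of all genes (0.16). The endoplasmic reticulum list lies farthest right (median 0.56, 15 of 20 filled), and the mitochondrial list lies below 0 (median -0.098).

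Calls among the mitochondrial stress genes went in both directions. Of 9 measured, 1 rose and 2 fell, with a median of -0.098, beside 29.7% and 6.02% of all genes. Under the 3 scalings 6, 7 and 5 of the 9 fell, where 15.3%, 23.9% and 11.0% of all genes fell. The number that fell was 1 without Control replicate 4 or 5 or LLC replicate 2, and 3 without Control replicate 2 or LLC replicate 1. Oma1, the protease that starts the mitochondrial stress signal, fell by 0.21 ± 0.048 (adjusted p = 0.0112) and Hspa9, a mitochondrial chaperone, by 0.14 ± 0.044 (adjusted p = 0.0243). Mthfd1l, a mitochondrial formate enzyme, rose by 0.55 ± 0.16 (adjusted p = 0.0179, but 0.196 under quantile normalization). In LLC + rFibcd1 against LLC it then fell by 0.93 ± 0.16 (adjusted p = 0.0432), from 2.41 ± 0.587 TPM (SD, n = 3) to 0.814 ± 0.432 TPM (SD, n = 4), and it was the only gene of these 8 lists called in that comparison. That call held in 6 of the 17 fits without 1 mouse (adjusted p up to 0.349, without LLC replicate 3, with the difference from -1.08 to -0.79) and was lost under the 3 scalings (0.0562, 0.0706 and 0.0518), with either covariate (0.138 and 0.0548), with a pseudocount of 0.1 TPM (0.0661), with the replicate block (0.264) and with only the 2 groups in the fit (0.297). Of 19 p53 targets, 4 rose and 1 fell, beside the same 29.7% and 6.02%, with a median of 0.26. Under the 3 scalings 3 rose, and 3, 3 and 1 fell, and without Control replicate 2, 7 rose. Bax, a killer protein of mitochondria, rose by 0.44 ± 0.095 (adjusted p = 0.0103), Trp53 itself by 0.55 ± 0.14 (adjusted p = 0.0130) and Pmaip1 by 1.17 ± 0.35 (adjusted p = 0.0218), while Ccng1, a cyclin induced by p53, fell by 0.38 ± 0.078 (adjusted p = 0.00994). Of the 9 other Gadd45 and cyclin-dependent kinase inhibitor genes, 1 rose and 0 fell, again beside 29.7% and 6.02% of all genes. The gene was Cdkn2a, at 0.87 ± 0.30 (adjusted p = 0.0373), a call lost under all 3 scalings (0.0585, 0.0830 and 0.0595). Under each of them 0 of the 9 rose and 1 fell, Cdkn1c (adjusted p = 0.0204, 0.0130 and 0.0260). Without 1 mouse, 0 to 4 of the 9 rose and 0 or 1 fell. Of 6 hormone receptors 1 rose and 0 fell, beside the same shares, and 1 also fell under quantile normalization. The one that rose was Fgfr2, by 0.88 ± 0.24 (adjusted p = 0.0147).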

How the data were processed

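RNA-seq of diaphragm from 17 mice was used. The authors trimmed the reads, aligned them to GRCm38 (mm10) with CLC Genomics Workbench and deposited TPM per gene symbol. The annotation release and the use of strand are not given in the sources used here. TPM is scaled within each sample, so a change in abundant mitochondrial transcripts moves all other values. Reads were estimated from the steps of low TPM values with exon lengths of GENCODE M21 on GRCm38, and 80.8% to 83.7% of low values fell within 0.02 of a whole read. They entered no test. Symbols matched for 45090 genes (94.6%).

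Groups came from the sample titles. A model of 4 groups on log2(TPM + 1) was fitted in limma 3.58.1 (R 4.3.3, 13 residual degrees of freedom, trended empirical Bayes, two-sided), for genes at 1 TPM or above in 3 or more mice. limma was used in place of the authors' Kruskal-Wallis and Dunn tests, and Dunn's test was an alternative. The labels name separate mice, and no sequencing batch is given. Correlations used 100000 permutations in 10 mice and exact permutations in 7. The test was checked on simulated data. All 10 genes are named. From each related list, the 3 genes with the smallest adjusted p in LLC against Control and the 2 with the smallest in LLC + rFibcd1 against LLC qualified, and examples are given. The genes and lists were chosen with earlier results of these data known.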

Additional observations from a re-analysis of the deposited data

Results flagged for a closer look

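In 28 groups of 4 or 5 mice, each gene's highest and lowest values were compared with the rest, and 3 stood apart by Dixon's ratio. Chance gives about 1 in 20. Asns in Control + rFibcd1 replicate 1 was 6.90 TPM, against 2.05 to 2.76 TPM in the other 4 (ratio 0.853, critical value 0.71). Psat1 in the same mouse was 4.69 TPM, against 1.48 to 1.92 TPM (ratio 0.862). Its B cell marker sum was 152 TPM and its adipocyte marker sum 1796 TPM, each the highest of the tumor-free mice. Gdf15 in Control + rFibcd1 replicate 4 was 0.101 TPM, or 5 reads, against 0.281 to 0.318 TPM in the other 4 (ratio 0.830).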

How the results depend on the processing

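Each count of called genes was recomputed with other pseudocounts, filters, scalings, fits, a Dunn test, marker covariates and a replicate block, and without each mouse. For rFibcd1 in tumor-bearing mice, rFibcd1 in tumor-free mice and the interaction, each alternative gave 0. The 4 calls in tumor-bearing against tumor-free mice became 2 under the Dunn test (a rank-sum test there), and 0 with the B cell or the neutrophil covariate, and ran from 1 to 5 without 1 mouse. The 3 calls in LLC against Control became 0 under the Dunn test and with either covariate, and ran from 0 to 3 without 1 mouse. The 1 call in LLC + rFibcd1 against Control became 0 without the filter on low values, under median-ratio scaling, under the Dunn test and with either covariate, and was 0 or 1 without 1 mouse. The neutrophil covariate and the differences relative to the median gene were added after the data were seen. The Dunn test called 0 of all 13305 genes in each comparison of 2 groups, so its counts there say nothing about these genes. Depth limits Gdf15 and Fgf21, with at most 33 and 2 reads per mouse.

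With the replicate number as a replicate block, these counts were 1, 0 and 0, and 5 of 13305 genes were called in LLC against Control in place of 4759. The numbers are no evidence of pairing: same-numbered mice of different groups had residual correlations from -0.46 to 0.49 (median -0.061, 22 pairs), and 1 of 17 mice correlated best with its own number.

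Signs turned for these log2 differences, and the cause was not tested. Atf4 in LLC against Control was -0.16 under median-ratio scaling, -0.12 under quantile normalization, -0.065 without mitochondrially encoded genes, -0.26 with the neutrophil covariate, -0.12 relative to the median gene, and -0.0070 to 0.11 without 1 mouse. Atf4 in tumor-bearing mice was -0.0092 under median-ratio scaling and -0.14 with the neutrophil covariate, and in LLC + rFibcd1 against Control it was -0.14 with that covariate. Trib3 in LLC against Control was -0.013 under median-ratio scaling, -0.20 under quantile normalization and -0.031 relative to the median gene, and in tumor-bearing mice -0.098 under quantile normalization. Trib3 in LLC + rFibcd1 against LLC was -0.5 in mean ranks (Dunn), -0.013 with the B cell covariate and from -0.060 to 0.080 without 1 mouse. Chac1 in LLC against Control was -0.0046, -0.040 and -0.010 under median-ratio scaling, quantile normalization and the neutrophil covariate, and -0.13 to 0.38 without 1 mouse. Ddit3 in LLC + rFibcd1 against LLC was 0.074, 0.067 and 0.052 under median-ratio scaling, quantile normalization and relative to the median gene, and -0.13 to 0.022 without 1 mouse. With the neutrophil covariate Ddit3 was 0.10 in tumor-bearing mice, 0.070 in LLC against Control and 0.031 in LLC + rFibcd1 against Control, and Cdkn1a was -0.20 in tumor-bearing mice and -0.78 in LLC against Control. Psat1 in LLC + rFibcd1 against Control was -0.014 with the B cell covariate. Without 1 mouse, uncalled differences of rFibcd1 in tumor-free mice spanned 0 for Atf4 (-0.12 to 0.022), Trib3 (-0.13 to 0.076), Asns (-0.28 to 0.065), Psat1 (-0.32 to 0.019) and Cdkn1a (-0.25 to 0.21), as did the interaction for Trib3 (-0.074 to 0.13) and Chac1 (-0.17 to 0.64).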
